A study of Mus musculus with 32 samples.

Results

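The genes described here encode 7 subunits of the GABA-A receptor: Gabra2, Gabra4 and Gabra5 (alpha subunits), Gabrb1 and Gabrb2 (beta subunits), Gabrg1 (a gamma subunit) and Gabrd (the delta subunit). They were chosen by symbol from the 54532 gene identifiers of the deposited count table, through the names in GENCODE M21, and each symbol matched 1 identifier. A further 12 GABA-A and GABA-rho subunit genes were followed beside them. RNA sequencing had been performed on the striatum of 32 mice aged 6 months, in 4 groups of 8, to ask whether loss of Msh3 alters the transcriptional changes of zQ175 mice. Wild-type mice carried neither allele. Msh3-/- mice were homozygous for a deletion of Msh3, a mismatch repair gene, made by CRISPR editing with guides in exons 3 and 8. zQ175 mice carried, on 1 allele of the endogenous Htt gene, the expanded CAG repeat that causes Huntington's disease, and zQ175:Msh3-/- mice carried both changes. All groups were littermates from one cross on a C57BL/6J background, and each held 4 males and 4 females apart from zQ175:Msh3-/-, with 5 males and 3 females.

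GABA-A receptors are chloride channels, usually built from alpha, beta and either gamma or delta subunits, that open when GABA binds and mediate most fast inhibition in the brain. Many, but not all, receptors with a gamma subunit cluster at synapses with the help of gephyrin. Receptors that join the delta subunit to an alpha4 subunit lie outside synapses and respond to low ambient GABA. In the striatum nearly all neurons are themselves GABAergic, and the spiny projection neurons, the cells most affected in Huntington's disease, express alpha4 and delta at high levels.

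The libraries held 12359347 to 25030335 gene-assigned counts each, and the 7 genes had between 260 (Gabra5) and 4050 (Gabra4) counts in a library, so that all 7 passed the filter on low counts that left 16610 genes to test. Values below are CPM (counts scaled by library size, with TMM factors) where a gene is compared between mice, and TPM (transcript abundances that also allow for transcript length, scaled to one fixed total per library) where genes are compared with each other. Msh3 itself, the check of the labels, lay between 22.8 and 27.5 CPM in the 16 mice without the deletion and between 10.4 and 14.2 CPM in the 16 mice with it. The count covers the whole gene, exons outside the deletion included. Markers of spiny projection neurons marked the tissue as striatum: the 11 markers summed to 8725 ± 613 CPM in wild-type mice and to 4749 ± 389 CPM in zQ175 mice, 54.4% of the wild-type level, and 10 of the 11 fell by the test used below, as 10 did in zQ175:Msh3-/- against Msh3-/- mice (56.4%). In whole tissue, fewer cells of a type and less RNA per cell cannot be told apart.

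Gabrg1, Gabra2, Gabra4 and Gabrb1 lie side by side on mouse chromosome 5 (build GRCm38), in that order: Gabrg1 (chr5:70751047-70842617, minus strand), Gabra2 (chr5:70957597-71095849, minus), Gabra4 (chr5:71569749-71658308, minus) and Gabrb1 (chr5:71658113-72149037, plus), a cluster that spans 1.40 Mb. Htt lies on the same chromosome, 35.8 Mb away. Gabra5 is at chr7:57407672-57510059 (minus), Gabrb2 at chr11:42419757-42629028 (plus) and Gabrd, the shortest of the 7 at 13.1 kb, at chr4:155384980-155398112 (minus). Gabra4 and Gabrb1 are transcribed away from each other from first exons that overlap, and share 46 exonic bases on opposite strands, 0.756% of the exonic bases of Gabra4. Gabra5 shares 148 exonic bases with Gm9962 on the other strand, and Gm9962 had at most 51 counts in a library. Whether the counting used strand is not given in the sources used here, so reads in the shared bases cannot be assigned to 1 gene with certainty.

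The sequences before the start sites of the alpha genes Gabra4, Gabra2 and Gabra5 are shown because these are the alpha genes among the 7. Of these, Gabra4 was called lower in zQ175 against wild-type mice, Gabra5 was called higher only on the Msh3-null background, and Gabra2 was called in neither comparison. RefSeq promoter windows (GRCm38.p6, 250 bases before to 50 bases after a start) matched 6 of the 7 genes, in 9 windows. The bases below run up to the start site, except for Gabra4, where they stop 56 bases before it at the edge of an annotated exon. Capitals mark matches to the motifs named after them, with ATTGG for CCAAT and CCGCCC for the GC box where the match is on the other strand.
Gabra4 (chr5:71658364-71658558, minus): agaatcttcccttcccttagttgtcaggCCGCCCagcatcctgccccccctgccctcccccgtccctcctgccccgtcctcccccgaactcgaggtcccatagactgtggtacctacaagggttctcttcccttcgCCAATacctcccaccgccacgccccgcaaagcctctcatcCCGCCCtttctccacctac
Gabra2 (chr5:71095850-71096099, minus): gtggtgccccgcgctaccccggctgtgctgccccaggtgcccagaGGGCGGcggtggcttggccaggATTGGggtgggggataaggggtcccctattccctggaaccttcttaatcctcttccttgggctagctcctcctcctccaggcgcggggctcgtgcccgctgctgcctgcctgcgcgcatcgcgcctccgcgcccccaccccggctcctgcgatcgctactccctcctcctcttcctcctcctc
Gabra5 (chr7:57510060-57510309, minus): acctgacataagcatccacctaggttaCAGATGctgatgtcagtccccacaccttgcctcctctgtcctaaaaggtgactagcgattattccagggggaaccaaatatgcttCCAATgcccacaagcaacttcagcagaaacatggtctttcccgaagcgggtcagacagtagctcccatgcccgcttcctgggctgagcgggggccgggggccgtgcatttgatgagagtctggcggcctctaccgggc
All windows were searched on both strands for 7 motifs. A CCAAT match, present in 37.4% of the 32851 RefSeq windows, stood in all 3 of these genes, on the gene's own strand in Gabra4 and Gabra5 and on the other in Gabra2. A GC box (GGGCGG, 35.7% of windows) was found in Gabra4 and Gabra2 but not in the Gabra5 window, and the E-box CAGATG (17.2%) only in the Gabra5 window among the 9. TATAAA (13.6%) was found in 1 window, of Gabrb2. The EGR motif GCGTGGGCG (0.612%), the cyclic AMP response element TGACGTCA (1.79%) and the AP-1 motif TGANTCA (7.81%) had no match in any of the 9 windows. None of the motifs overlapped another in the stretches shown. Over the whole window the GC content was 70.0% for Gabra2, 58.7% for Gabra4 and 56.7% for Gabra5.

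Per transcript length, the delta subunit gene was the most abundant of the 19 subunit genes in striatum without the zQ175 allele. In wild-type mice Gabrd stood at 148 ± 10.0 TPM (SD, n = 8), above Gabra4 at 104 ± 6.44 TPM, Gabrb2 at 58.5 ± 2.57 TPM and Gabra2 at 33.1 ± 2.88 TPM, and the ranges of these 4 neighbours were separate. Gabrb1 (25.9 ± 1.96 TPM, separate from Gabra2), Gabra5 (21.5 ± 4.53 TPM) and Gabrg1 (13.6 ± 2.00 TPM) followed, with overlapping ranges between Gabrb1 and Gabra5 and between Gabra5 and Gabrg1. In Msh3-/- mice the order was the same. In zQ175 mice Gabrd, at 96.8 ± 6.66 TPM, overlapped with Gabra4 at 87.3 ± 6.62 TPM, and it had rank 3 among the 19 subunit genes. Its rank was also 3 in zQ175:Msh3-/- mice, at 102 ± 6.25 TPM. Gabra5 changed places with Gabrb1 in both groups with the zQ175 allele, but the ranges of these 2 genes overlapped there.

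In zQ175 striatum the delta and alpha4 subunit genes, Gabrd and Gabra4, were lower than in wild-type striatum, and no gene of the 7 was called higher. A call required an adjusted p under 0.05 in the edgeR quasi-likelihood test, adjusted by Benjamini-Hochberg over all 16610 genes, and a change of at least 1.2-fold. By that rule 2 of the 7 genes fell and 0 rose, where 11.6% of all genes tested were called, 6.89% lower and 4.70% higher. The median log2 fold change of the 7 genes was -0.09, against 0.01 for all genes.

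Gabrd, which encodes the delta subunit, had the largest difference of the 7. Its level was 119 CPM in the lowest, 130 in the median and 144 in the highest wild-type mouse, and 69.0, 80.1 and 87.5 CPM in the same order in zQ175 mice. Every zQ175 mouse lay below every wild-type mouse. The zQ175 mean was 61.7% of the wild-type mean, a log2 fold change of -0.69 ± 0.05 (SE; adjusted p = 4.37e-14).

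Gabra4, the alpha4 subunit gene, ranged from 168 CPM through a median of 182 to 200 CPM in wild-type mice and from 126 through 148 to 161 CPM in zQ175 mice. The 2 groups did not overlap for Gabra4 either. How many of all the genes tested separate in this way was not counted, here or on the Msh3-null background. The zQ175 mean was 80.3% of the wild-type mean, a smaller fall than that of Gabrd (log2 fold change -0.32 ± 0.05; adjusted p = 3.78e-06). Fitted by limma to log2(TPM + 0.1), the change was -0.26 with an adjusted p of 1.04e-04 and lay just under 1.2-fold, so the call was lost there through the fold limit.

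Gabra2, the alpha2 subunit gene, ran from 63.0 to 82.6 CPM (median 68.6) in wild-type mice and from 51.3 to 73.3 CPM (median 62.3) in zQ175 mice, with 5 of 8 zQ175 mice below the whole wild-type range. Its adjusted p was 0.0381, but its mean was 88.8% of the wild-type mean, a change under 1.2-fold, so it was not called.

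Gabra5, whose alpha5 subunit is best known from extrasynaptic receptors of the hippocampus, moved in the opposite direction. It was at 18.2, 23.4 and 33.6 CPM in the lowest, median and highest wild-type mouse and at 24.5, 28.5 and 34.0 CPM in zQ175 mice. All 8 zQ175 mice lay above the wild-type median, although the ranges overlapped widely. The mean was 119% of wild-type, and the difference missed the threshold (log2 fold change 0.25 ± 0.10; adjusted p = 0.0669).

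For the other 3 genes the intervals of the difference included 0. Gabrb1, a beta subunit gene, had a log2 fold change of -0.09 (95% interval -0.18 to 0.0025; adjusted p = 0.149). Gabrb2, the beta2 subunit gene, had one of -0.0018 (-0.13 to 0.13), with zQ175 mice spread from 84.8 to 120.0 CPM around a wild-type range of 94.0 to 105 CPM. Gabrg1, the gamma1 subunit gene, had one of -0.0093 (-0.16 to 0.14), with all 8 zQ175 mice inside the wild-type range of 22.3 to 32.2 CPM. On the Msh3-null background Gabrb1 differed by 0.01, Gabrb2 by 0.10 and Gabrg1 by -0.06, and none was called.

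**Figure D1:**
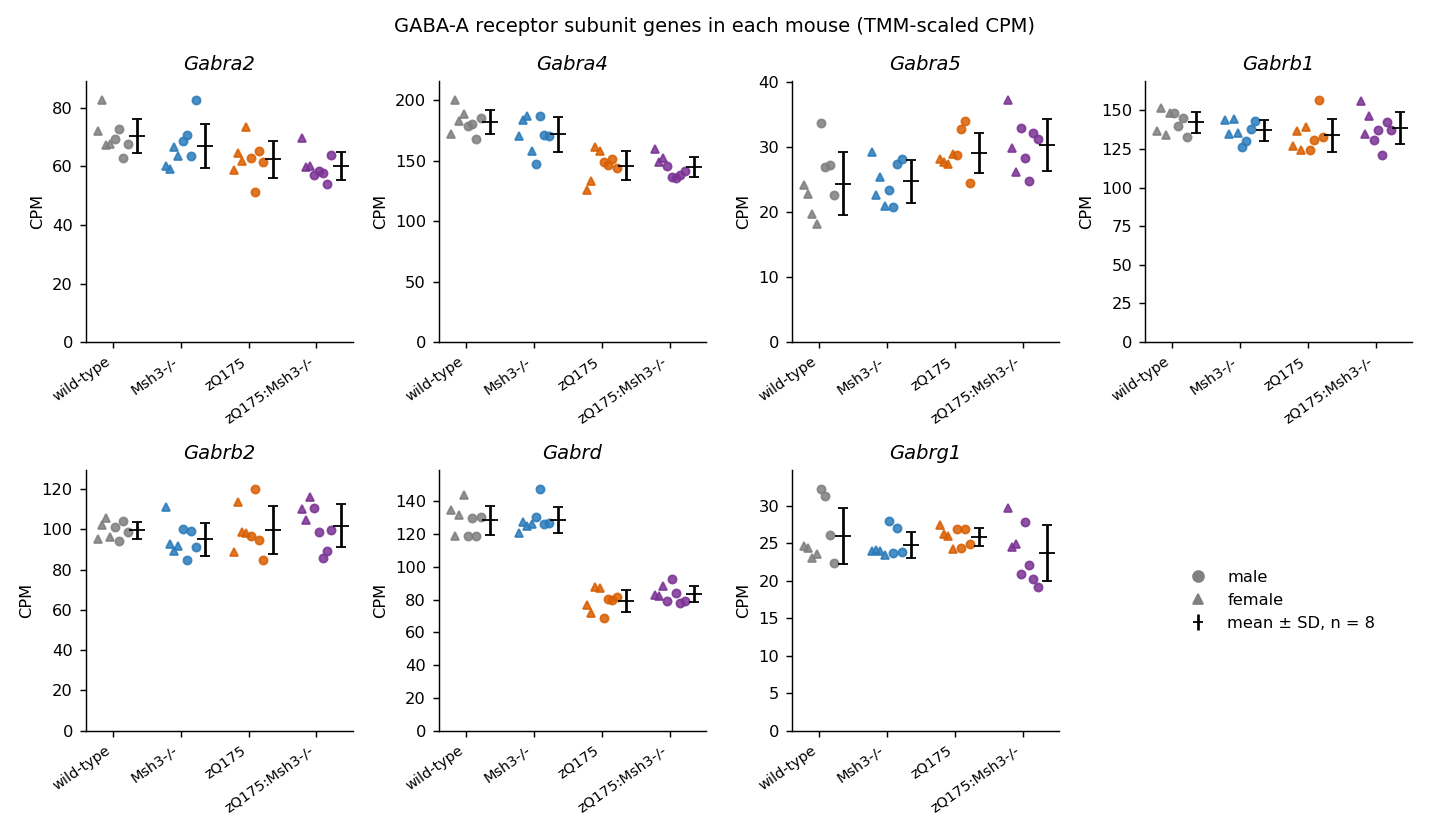
Level of each of the 7 genes in each mouse (y axis, CPM with TMM scaling, from 0) by genotype (x axis), with circles for males, triangles for females and bars for the mean ± SD of 8 mice. The zQ175 points for Gabrd (69.0 to 87.5 CPM) and Gabra4 (126 to 161 CPM) lie below all wild-type points, and those of Gabrb1, Gabrb2 and Gabrg1 overlap with wild-type.

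The zQ175 allele was compared a second time on the Msh3-null background, in 16 mice that enter neither side of the first comparison. Gabrd was again lower and Gabra5 was called higher, 2 of 7 genes, where 10.6% of all genes were called, 5.96% lower and 4.68% higher. Gabrd ran from 121 through 126 to 147 CPM in Msh3-/- mice and from 78.0 through 82.5 to 92.7 CPM in zQ175:Msh3-/- mice, without overlap, and its mean was 64.7% of that in Msh3-/- mice (log2 fold change -0.63 ± 0.05; adjusted p = 9.67e-13). Gabra4 ran from 147 to 187 CPM in Msh3-/- mice and from 135 to 160 CPM in zQ175:Msh3-/- mice. All 8 zQ175:Msh3-/- mice lay below the Msh3-/- median, and the mean was 84.2%, a change that passed the adjusted p (1.66e-04) but not the fold limit (log2 fold change -0.25 ± 0.05). The ranges overlapped, with 5 of the 8 mice below the whole Msh3-/- range. Without any one of 3 mice (male 1 or female 4 of Msh3-/-, female 1 of zQ175:Msh3-/-) the change was between -0.27 and -0.28 and passed both.

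Gabra5 was at 20.8, 24.5 and 29.2 CPM in the lowest, median and highest Msh3-/- mouse and at 24.7, 30.5 and 37.2 CPM in zQ175:Msh3-/- mice, of which 5 of 8 lay above the whole Msh3-/- range. The log2 fold change was 0.29 ± 0.10 (adjusted p = 0.0313), and the call rested on single mice. It was lost without any one of 6 of the 32 mice, namely males 1 and 4 and female 1 of zQ175:Msh3-/- and male 2 and females 2 and 4 of Msh3-/-, with adjusted p between 0.0536 and 0.0755 and log2 fold changes of 0.25 to 0.28. The first comparison was close to the same threshold from the other side: without wild-type male 1 or zQ175 male 4, Gabra5 was called higher there too (log2 fold change 0.33 and 0.28; adjusted p = 0.00682 and 0.0425). The test of the difference between the 2 zQ175 effects gave 0.05 ± 0.14 on the log2 scale for Gabra5.

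**Figure D2:**
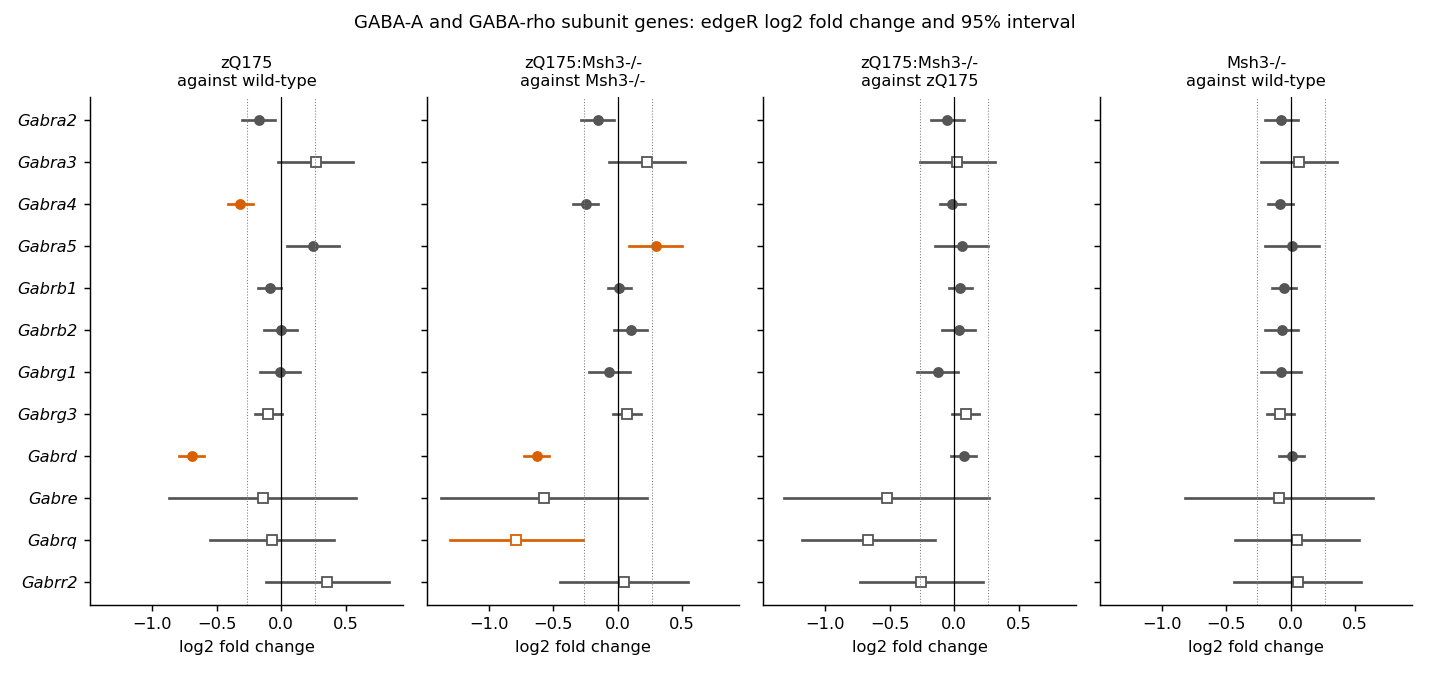
edgeR log2 fold change (x axis) with its 95% interval for 12 subunit genes that passed the filter (y axis) in 4 comparisons; filled circles are the 7 genes, open squares 5 other subunits, orange marks calls and dotted lines mark 1.2-fold. Gabrd lies at -0.69 and -0.63 in the 2 zQ175 comparisons on the left, and no gene is called in the 2 Msh3 comparisons on the right.

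The summed level of markers of glutamatergic neurons was higher in the groups with the zQ175 allele, as that of Gabra5 was, although the marker ranges of all groups overlapped. The 8 markers summed to 45.1 CPM in the lowest mouse and 676 CPM in the highest, with group medians of 204 CPM for wild-type, 276 CPM for zQ175, 229 CPM for Msh3-/- and 335 CPM for zQ175:Msh3-/- mice. None of the 8 was at 0 in all mice, and 0 of 8 were called in either zQ175 comparison. With the log2 marker sum as a term in the model, an alternative chosen after seeing the data, the log2 fold change of Gabra5 was 0.18 in zQ175 against wild-type mice and 0.21 in zQ175:Msh3-/- against Msh3-/- mice (adjusted p = 0.0796), and the call was lost. The part of these cells in the Gabra5 difference was not tested. With the same term Gabrd was lower by 0.66 and 0.60, and Gabra4 by 0.32 and 0.25, on the log2 scale. The part of these cells in the differences of Gabrd and Gabra4 was not tested either.

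**Figure D3:**
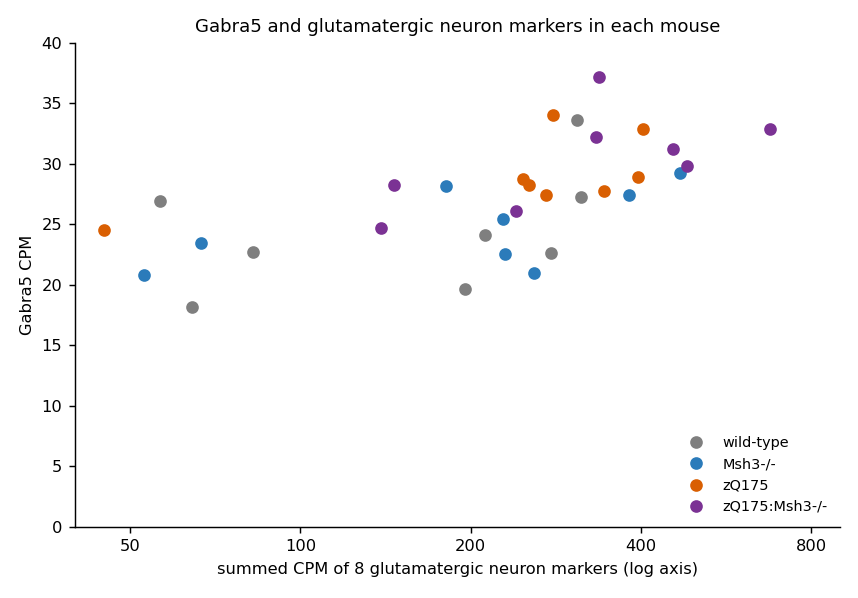
Gabra5 level (y axis, CPM) against the summed CPM of 8 glutamatergic neuron markers (x axis, log scale) in each of the 32 mice, coloured by genotype. The marker sums run from 45.1 to 676 CPM, and the mouse with the highest sum, a zQ175:Msh3-/- male, had 32.9 CPM of Gabra5.

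The lower levels of Gabrd and Gabra4 stood beside lower spiny neuron markers in the same mice. Of the 11 markers, Penk (enkephalin, of the indirect pathway) had a log2 fold change of -1.32 in zQ175 against wild-type mice, Drd1 (the dopamine receptor of the direct pathway) one of -0.81 and Pdyn (prodynorphin) one of -0.32. Gabrd stood at 61.7% of wild-type, Gabra4 at 80.3% and the marker sum, in which abundant markers weigh most, at 54.4%. The median log2 fold change of the 11 markers was -0.81, and 10 of them were called lower. Gabrd had a log2 fold change of -0.69 and Gabra4, like Pdyn, one of -0.32. The glutamatergic sum in zQ175 mice was 148% of wild-type, with 0 of 8 markers called. For the other lists the summed level in zQ175 mice was 84.5% of wild-type for 7 astrocyte markers (1 called), 92.2% for 10 interneuron markers (2 called), 91.9% for 6 oligodendrocyte markers (1 called), 94.4% for 4 oligodendrocyte precursor markers (1 called), 93.2% for 6 microglial markers (0 called) and 87.1% for 6 endothelial and mural markers (1 called). The part of a change in cell number in the fall of Gabrd and Gabra4 was not tested.

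Loss of Msh3 moved none of the 7 genes past the threshold. Between zQ175:Msh3-/- and zQ175 mice 0 of 7 genes were called, where 0.00602% of all genes were, and all 7 had an unadjusted p over 0.05 and an adjusted p of 0.999 by edgeR. DESeq2 and limma called 0 of 7 as well. Gabrd had a log2 difference of 0.07 (95% interval -0.02 to 0.17), to be read against the 0.69 by which zQ175 mice lay below wild-type mice on the same scale. Gabra4 differed by -0.01 (-0.11 to 0.08), Gabra5 by 0.06 (-0.15 to 0.26), Gabra2 by -0.05 (-0.18 to 0.08), Gabrb1 by 0.05 (-0.04 to 0.14), Gabrb2 by 0.03 (-0.09 to 0.16) and Gabrg1 by -0.13 (-0.29 to 0.03). Between Msh3-/- and wild-type mice 0 of 7 were called, where 0.00602% of all genes were, with log2 differences from -0.08 (Gabra4) to 0.01 (Gabra5) and 0 of 7 with an unadjusted p under 0.05. In both comparisons the gene called was Msh3 itself. The interaction of the 2 alleles was called for 0 of 7 genes and for 0% of all genes by edgeR, as by DESeq2 and limma. At an unadjusted p under 0.05 the interaction took in 0 of the 7 and 737 of the 16610 genes.

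Among the 4 neighbours on chromosome 5, only Gabra4 was called in zQ175 against wild-type mice. Gabra4 fell, Gabra2 and Gabrb1, on either side of it, had log2 fold changes of -0.17 and -0.09, and Gabrg1 at the far end one of -0.01. The intervals of Gabra4 (-0.41 to -0.22) and Gabrb1 (-0.18 to 0.0025), which start from overlapping first exons, were separate. That of Gabra2 (-0.30 to -0.05) overlapped with both. Whether the genes differ from each other in their response was not tested.

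**Figure D4:**
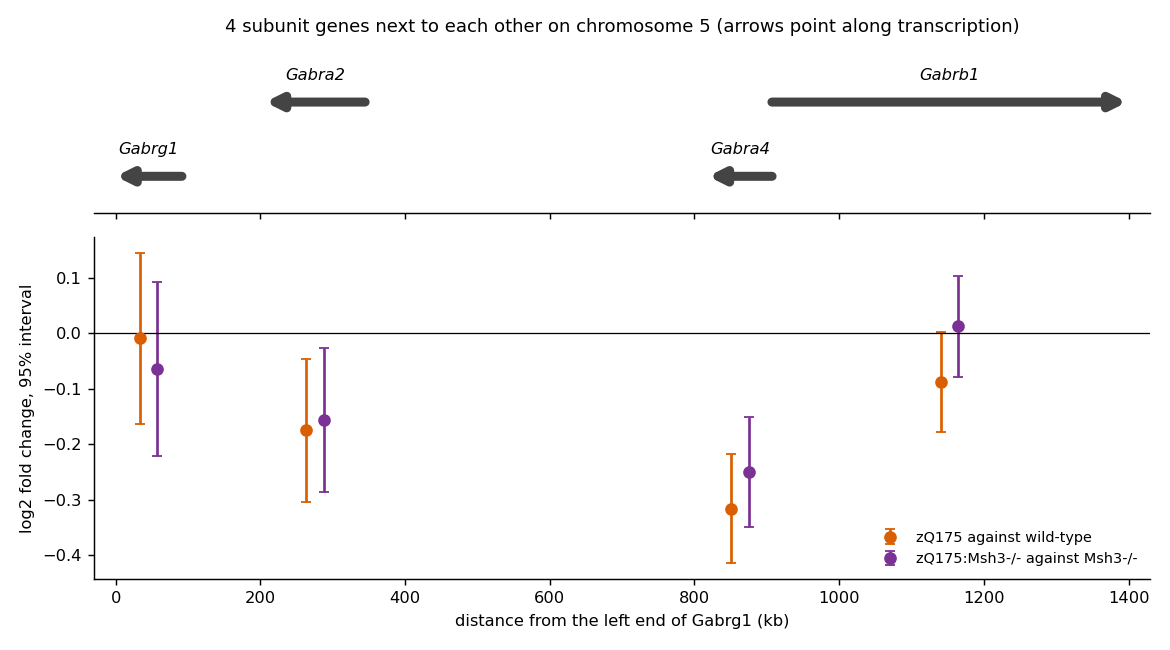
The 4 subunit genes of the chromosome 5 cluster drawn to scale (x axis, distance in kb from the left end of Gabrg1; arrows point along transcription) above their log2 fold changes with 95% intervals in the 2 zQ175 comparisons. Gabra4 has the lowest value in both (-0.32 and -0.25), and the intervals of Gabrg1 include 0 in both.

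The share of each gene in the summed TPM of its class was compared as well, with 2-sided exact permutation tests over 8 against 8 mice (smallest possible p 0.000155), adjusted over 26 tests of 13 shares in 2 comparisons. In zQ175 against wild-type mice 6 of 13 shares passed. Among the gamma and delta genes, Gabrd made up 57.7 ± 2.44% (SD, n = 8) in wild-type and 46.0 ± 1.82% in zQ175 mice, a loss of 11.7 percentage points without overlap (exact permutation test, adjusted p = 0.00202). The share of Gabrg1 went from 5.31 ± 0.861% to 6.82 ± 0.727% (exact permutation test, adjusted p = 0.0148) and that of Gabrg3 from 5.23 ± 0.533% to 6.31 ± 0.479% (adjusted p = 0.00707). Shares of 1 total are not independent, since a fall of 1 gene raises the share of the others, and Gabrg1 and Gabrg3 were not called by their own levels.

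Among the alpha genes, Gabra4 fell from 35.02 ± 3.32% to 27.9 ± 2.72% of the class (exact permutation test, adjusted p = 0.00404). Its share ran from 31.0 to 41.1% in wild-type mice and from 24.3 to 31.5% in zQ175 mice, so that the ranges overlapped only at their edges. The shares of Gabra2 (11.1% to 10.0%) and Gabra5 (7.14% to 8.46%) did not pass (adjusted p = 0.148 and 0.0641). Among the beta genes no share passed: Gabrb2 held 27.7 ± 1.06% in wild-type and 28.0 ± 2.12% in zQ175 mice, and Gabrb1 12.2 ± 0.576% and 11.4 ± 0.872%. Between zQ175:Msh3-/- and zQ175 mice 0 of 13 shares passed, and the share of Gabrd was 47.9 ± 2.04% in the former (difference 1.88 percentage points, exact permutation test, adjusted p = 0.172).

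**Figure D5:**
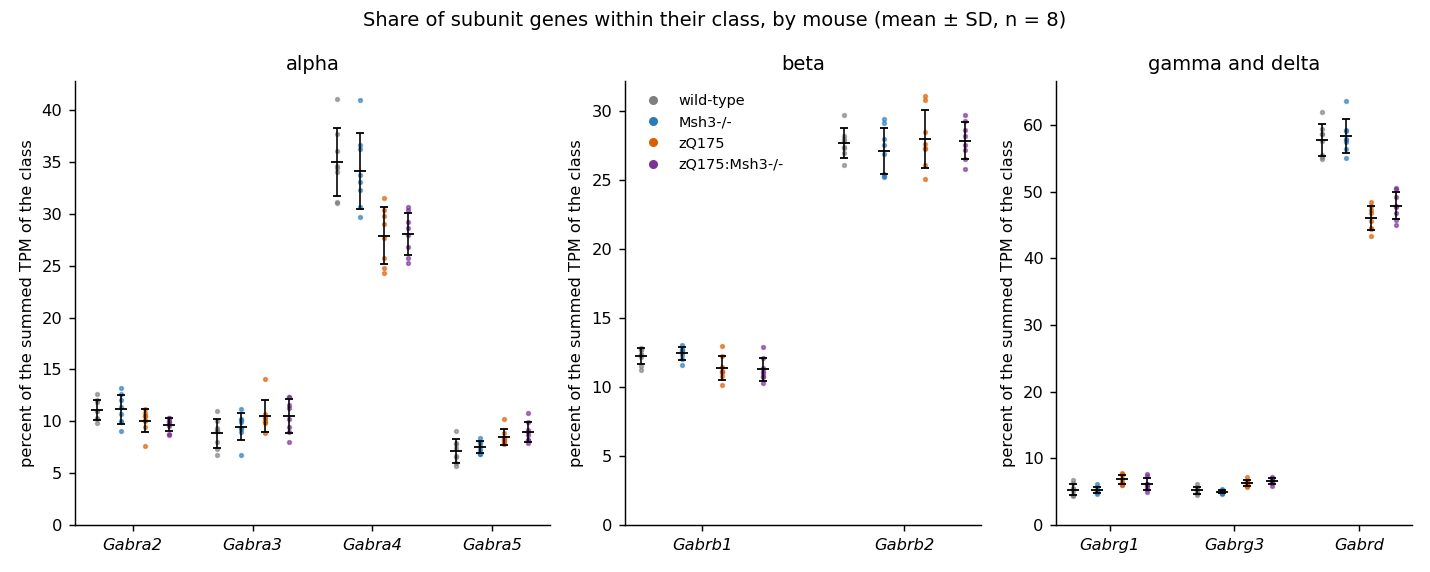
Share of the 7 genes, Gabra3 and Gabrg3 in the summed TPM of their class (y axis, percent; the sum takes in all genes of the class) in each mouse by genotype, with the mean ± SD of 8 mice. Gabrd drops from 57.7% to 46.0% and Gabra4 from 35.02% to 27.9% between wild-type and zQ175 mice, while no share of a beta gene passed the test.

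Of the other 12 subunit genes, 8 passed the filter and 0 were called in zQ175 against wild-type mice, where 11.6% of all genes were. Gabra3, the alpha3 subunit gene, had a log2 fold change of 0.27 ± 0.14 (adjusted p = 0.178) and Gabrg3, the gamma3 subunit gene, one of -0.10 ± 0.05 (adjusted p = 0.167). In zQ175:Msh3-/- against Msh3-/- mice 1 of the 8 was called, a share near the 10.6% over all genes. It was Gabrq (the theta subunit), which fell by 0.79 on the log2 scale (edgeR, adjusted p = 0.0203). Its level was low, at 0.51 to 2.40 CPM in these 16 mice and 9 to 54 counts in a library over all mice. Gabra6, Gabrp, Gabrr1 and Gabrr3 had at most 5 counts in any library and were not tested.

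Genes that work with the receptor, and genes of GABA-B and glycine receptors, were followed in 5 further lists. Their counts in zQ175 against wild-type mice stand beside 11.6% of all genes called, and beside 4398 of the 16610 genes with an adjusted p under 0.05. Of 21 genes for clustering, assembly and trafficking of GABA-A receptors, 1 was called: Insyn1, a scaffold protein of inhibitory synapses, fell by 0.42 ± 0.05 on the log2 scale (adjusted p = 4.72e-09) and by 0.43 ± 0.05 in zQ175:Msh3-/- against Msh3-/- mice (adjusted p = 4.99e-09). A further 5 of the 21 had an adjusted p under 0.05 with changes under 1.2-fold, among them Gphn (gephyrin, the main synaptic scaffold; -0.19 ± 0.03), so that 6 of 21 passed the adjusted p, a share near that over all genes. Of 6 GABA-B receptor and auxiliary genes 1 was called, Kctd16, a subunit that tunes GABA-B signalling (-0.33 ± 0.08; adjusted p = 0.00101), and it was not called on the Msh3-null background (-0.13 ± 0.08). Glra2, the alpha2 subunit of the glycine receptor, a related chloride channel, was the 1 gene called higher among 3 tested glycine receptor genes, at 0.32 ± 0.09 (adjusted p = 0.00738) and 0.40 ± 0.09 (adjusted p = 9.34e-04). Of 8 tested genes for GABA synthesis, vesicle loading, uptake and breakdown and of 10 for the chloride gradient, 0 were called in either zQ175 comparison. The list medians in zQ175 against wild-type mice lay between -0.11 and -0.01, against 0.01 for all genes.

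The variation of the 7 genes between mice of one genotype was described by the Pearson correlation of their log2 CPM deviations from the genotype means over 32 mice, as a description. The points share a library preparation and a dissection of mixed cells. Among the 21 pairs of the 7 genes the correlation ran from -0.48 (Gabra5 with Gabrd) to 0.45 (Gabra5 with Gabrb1), and Gabra4 with Gabrd stood at 0.28. The 2 genes most like Gabrd among all tested were C2cd2l (r = 0.83) and Adora2a, the adenosine receptor of indirect pathway neurons (r = 0.83). Gabra4 was most like Mmd (0.82) and Gcc2 (0.81), and Gabra2 most like Zcchc7 (0.75) and Gtpbp2 (0.70). Gabra5 was most like Sst, the neuropeptide somatostatin (0.84), and Syt17 (0.84). Gabrb2 was most like Cpeb3 (0.80). Gabrb1 was most like Rnf217 and Gda (both 0.72) and Gabrg1 most like Gpr101 (0.79) and Npy2r (0.78).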

How the data were processed

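Striatal RNA from 32 mice had been sequenced from polyA-selected libraries (paired 150-base reads, per the labels). The authors deposited gene-level read counts and a normalized table; each column of the latter sums to the same fixed total, so its values were treated as TPM made by the authors before deposit, although the table is named for FPKM. The build is GRCm38.p6 per the submitters' processing notes; the aligner, the counter and the strand setting are not given in the sources used here. Counts were tested as deposited with edgeR 4.0.16 (R 4.3.3): filterByExpr by genotype (16610 of 54532 genes), TMM, 1 model over the 4 genotypes, robust quasi-likelihood test, Benjamini-Hochberg adjustment, call at adjusted p under 0.05 and at least 1.2-fold (interaction: adjusted p alone). Of the identifiers, 54495 were named by GENCODE M21. Shares of TPM were compared by exact permutation (SciPy 1.17.1, NumPy 2.4.6). DESeq2 1.42.0 and limma 3.58.1 served as alternatives. All fits were tested on simulated data. Named genes were the 7 subunits, the other subunits, up to 4 called genes of each related list by smallest adjusted p, and for each of the 7 the 2 most correlated genes, leaving out some genes that are not reported here; Gphn and the single markers were named after their values were seen. The members and lists were chosen with earlier results of these data known. No 2 mice of a genotype agreed within sampling noise (lowest chi-square per degree of freedom 4.15 over 112 pairs). The p-values measure the spread between mice. Intervals are 95% intervals of the fits.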

Additional observations from a re-analysis of the deposited data

Results flagged for a closer look

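In 28 sets (7 genes in 4 genotypes, 8 mice each) the gap of the highest or lowest mouse to its nearest neighbour was set against the range of the set, and chance alone passes the limit used (0.526) in about 1 of 20 sets. It was passed in 2. Gabrb1 in zQ175 male 3 was at 156.6 CPM, above the next mouse at 139.3 CPM, a gap of 0.533 of the range. Without each mouse in turn, Gabrb1 had log2 fold changes of -0.12 to -0.07 in zQ175 against wild-type mice. Its adjusted p (edgeR) then ran from 0.0256 to 0.269, and it was called in 0 of these 32 fits, since no change reached 1.2-fold. Gabrd in Msh3-/- male 2 was at 147.5 CPM, above the next mouse at 130.6 CPM, a gap of 0.638 of the range. Without that mouse Gabrd had a log2 fold change of -0.60 in zQ175:Msh3-/- against Msh3-/- mice (edgeR, adjusted p = 2.51e-12).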

How the results depend on the processing

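In zQ175 against wild-type mice 2 of the 7 genes were called, and 2 or 3 under every alternative tried except a limit of 1.5-fold, which left 1 (Gabrd); without each mouse in turn the count was 2 or 3. With limma on log2 TPM the 2 were Gabrd and Gabra5 (0.32, adjusted p = 0.0155), in place of Gabra4, and in females only Gabra5 was a further call (0.41, adjusted p = 0.0211). The median log2 difference was 0.07 on the TPM scale, over 22274 genes, and 0.01 in the count fit, over 16610 genes. These 2 medians are of different sets of genes. On the TPM scale Gabra4 stood at -0.26 in place of -0.32 and Gabra5 at 0.32 in place of 0.25. Gabrd was called in both zQ175 comparisons under all 15 alternatives and without each of the 32 mice. In zQ175:Msh3-/- against Msh3-/- mice, where 2 were called, the count was 1 with no filter on low counts, with a limit of 1.5-fold, in females only and with the glutamatergic marker level in the model (added after seeing the data), and 1 to 3 without each mouse in turn. Wherever it was 1, the gene called was Gabrd. In males only, Gabra2 and Gabra4 were called lower beside Gabrd (-0.30 and -0.28; adjusted p = 0.0100 and 8.15e-04) and Gabra5 was not called. Over the 15 alternatives of this comparison Gabra4 ran from -0.28 to -0.18 and Gabra2 from -0.30 to 0.02. Their highest adjusted p by edgeR, DESeq2 or limma was 0.160 and 0.943. Counting adjusted p alone, Gabra2 was also called in the first comparison and Gabra4 in the second. In the 2 Msh3 comparisons and the interaction, 0 of the 7 were called under each alternative. The count of shares past the threshold in zQ175 against wild-type mice was 6, but 0 in males only and 0 in females only, where 4 against 4 mice cannot give a p under 0.0286, and 6 to 8 without each mouse in turn. No direction of a called value was reversed. Over all genes, 1925 calls in zQ175 against wild-type mice became 4398 with adjusted p alone, 538 at 1.5-fold and 1180 in males only; 1768 in zQ175:Msh3-/- against Msh3-/- mice became 4002, 503 and, in females only, 1067; and 1 in Msh3-/- against wild-type mice became 3 in males only.

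Replicate numbers were taken with sex as a replicate block. The count of the 7 called in zQ175:Msh3-/- against Msh3-/- mice was then 1 (Gabra5 lost, adjusted p = 0.0768), and no other count moved. The numbers did not pair the mice: of 45 same-numbered pairs 14 correlated over 0.1 (median 0.0509, against 0.0578 for other pairs), and 8 of 31 mice correlated best with their own number.

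Gabra6, Gabrp, Gabrr1 and Gabrr3 (at most 5 counts in a library) did not pass the filter on low counts and were not tested. Among the genes tested Gabre, Gabrq and Gabrr2 had 1 to 54 counts in a library.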
